A study of Homo sapiens with 9 samples.

Results

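The 9 genes described here form the core of retinoic acid handling, and they were chosen by name from that pathway among the 60708 genes measured. *STRA6* takes up retinol, *DHRS3* turns retinaldehyde back into retinol, *ALDH1A1*, *ALDH1A2* and *ALDH1A3* make retinoic acid, *CRABP1* and *CRABP2* carry it in the cytosol, and *CYP26A1* and *CYP26B1* break it down. MDA-MB-231 is an established human cell line of triple-negative, basal type breast cancer. RNA-sequencing counts were available for 9 libraries, 3 labelled WT, 3 labelled CS16 and 3 labelled CS19. CS16 and CS19 are each a single-cell clone that carries the genotype label *SNAI1*-KO and was made with pooled CRISPR/Cas9 guides and puromycin selection. All cells were untreated and grown in DMEM with fetal bovine serum.

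Retinoic acid is a small acid made from vitamin A in 2 steps, a reversible oxidation of retinol to retinaldehyde and an irreversible oxidation of retinaldehyde by the ALDH1A enzymes. It binds nuclear receptors of the RAR family, which pair with RXR receptors on DNA. CYP26 enzymes hydroxylate it, and *CYP26A1*, *DHRS3* and *RARB* are textbook targets of its receptors. Breast epithelium and breast cancers use this pathway in differentiation, and ALDH1A activity is widely used as a stem cell marker.

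The libraries held 19527195 to 28627777 counted read pairs. *SNAI1*, the targeted gene, was not lower in the libraries labelled *SNAI1*-KO. Its counts were 16, 38 and 21 in WT, 26, 40 and 49 in CS16 and 57, 94 and 94 in CS19, a log2 fold change of 0.89 (SE 0.42) with an adjusted p of 0.0838 by edgeR's quasi-likelihood test for both clones against WT, and of 0.0146 without WT-2, 0.0454 without CS16-1 and 0.0459 without the filter on low counts. Counts per gene do not show whether a transcript is intact. WT-2 stood apart from the other WT libraries, its chi-square over degrees of freedom being 220.9 against WT-1 and 270.9 against WT-3, where WT-1 and WT-3 differed from each other by 16.9. The 4 genes *CDKN2A*, *CDKN2B*, *MTAP* and *DMRTA1* of 9p21, a region deleted on both copies around *CDKN2A* in MDA-MB-231 as background knowledge has it, had 0 counts in all WT libraries and summed to 164.1 to 181.9 CPM (counts scaled by library size) in the clones. Of 15 basal and mesenchymal breast cancer markers, the summed level was 9831 to 13010 CPM in WT, 406.1 to 442.6 in CS16 and 362.9 to 371.3 in CS19. *CD44*, *S100A6*, *KRT5*, *KRT14* and *KRT81* were at 0 in every CS16 library, and *KRT5* and *KRT81* in every CS19 library. *KRT5* was also at 0 in WT, and *KRT14* had only 1 to 5 counts per WT library. *VIM* kept a mean of 321.4 CPM over the clones, beside 920.2 in WT. Of 15 luminal markers the sum was 1664 to 2467 CPM in WT, 327.1 to 347.4 in CS16 with *KRT19*, *TFF1*, *TFF3* and *SPDEF* at 0, and 366.8 to 395 in CS19 with *TFF1* and *TFF3* at 0. Of 15 embryonic kidney markers it was 76.24 to 119.7 CPM in WT with *PAX2*, *SALL1* and *LIN28B* at 0, 373.7 to 392 in CS16 with *PAX8* among those at 0, and 267 to 308.8 in CS19. *LIN28B* alone gave a mean of 230.7 CPM in CS16 and 132.9 in CS19, and *PAX8* and *OSR1* were lower, at means of 16.1 and 23.8 CPM in WT and 0.011 and 0.071 over the clones. These values go against the labelled cell line in the clones and move with every comparison against WT below. Effects of the *SNAI1* genotype, of growth from a single cell and of any difference in the origin of the cells would fall between the same libraries and cannot be told apart, so each direction below is one between libraries labelled WT and libraries labelled CS16 or CS19. No label says that libraries of a group came from separate cultures, and the p-values then measure only the spread between these libraries. In bulk RNA, fewer cells with a transcript and less of it per cell cannot be told apart.

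The libraries labelled *SNAI1*-KO had a different set of retinoic acid enzymes from the WT libraries. *CYP26A1* and *ALDH1A1*, at 0 or 1 counts per WT library, were present in every clone library. *ALDH1A2*, low in WT at 14 to 23 counts per library, and *DHRS3* were higher as well, and *ALDH1A3*, *CYP26B1* and *CRABP2* were lower. Of the 9 genes, 7 passed the filter on low counts. A gene was called when its adjusted p was below 0.05 by edgeR's quasi-likelihood test and its log2 fold change was 2 or more, up or down. In both clones against WT all 7 tested genes were called, 4 higher and 3 lower, where 26.9% of 19631 tested genes were called, 12.6% higher and 14.3% lower. *DHRS3*, *ALDH1A3* and *CYP26B1* lay just past the fold-change threshold, and only 5 or 6 genes were called without any 1 library. By the adjusted p alone, 63.7% of all tested genes differed. The 6 clone libraries entered this test as a single group without a term for the clone, though they come from only 2 single-cell clones. A filter can pass a gene through the group where it is high, and the 7 are not all 9 genes. The median log2 fold change of the 7 was 2.05, the value of *DHRS3*, beside -0.00 over all genes tested. With 4 genes higher and 3 lower it does not describe a shift of the whole set. *CRABP1* had 0 counts in all 9 libraries and *STRA6* had 2 to 9 counts per library, and neither could be tested.

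**Figure D1:**
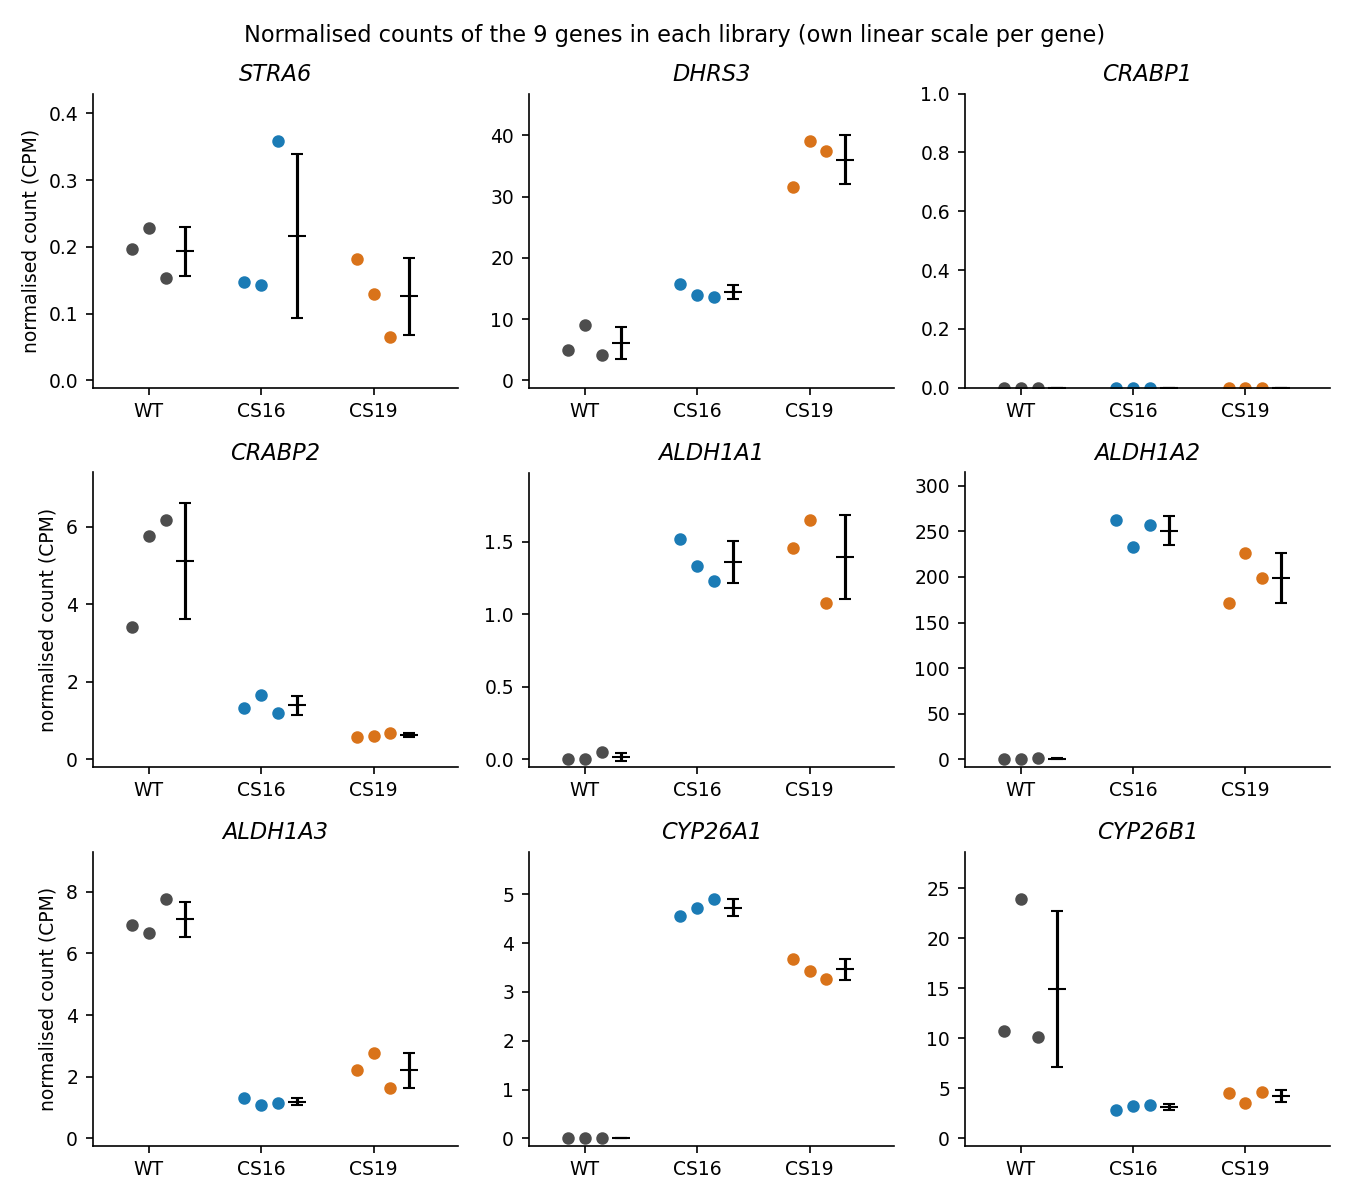
Normalised counts (CPM, vertical axes, each gene on its own linear scale) of the 9 genes in each of 3 WT, 3 CS16 and 3 CS19 libraries, shown as points, with the group mean and SD as a bar beside them. In *ALDH1A2* and *CYP26A1* every clone library lies above every WT library, in *CRABP2*, *ALDH1A3* and *CYP26B1* every clone library lies below, and *CRABP1* is at 0 throughout.

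Entry of retinol through the known receptor could hardly be measured. *STRA6* (ENSG00000137868, chromosome 15, 74179466 to 74212267, minus strand, GRCh38) had 4, 4 and 3 counts in WT, 3, 3 and 9 in CS16 and 4, 3 and 2 in CS19. The groups overlapped. The ratio of its normalised level in the clones to that in WT was 0.88 with an exact 95% interval of 0.415 to 1.99, which covers counting error only and includes both a fall and a rise. *CRABP1* (chromosome 15, 78340353 to 78348225, plus strand), a carrier thought to hand retinoic acid to its breakdown, was at 0 counts in every library, which allows up to 3 counts per library. Of the exon bases of *CRABP1*, 45.9% also belong to exons of a gene on the opposite strand. Pairs on such shared bases were counted for neither gene, so the 0 speaks for the rest of the gene.

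*DHRS3* (chromosome 1, 12567910 to 12618210, minus strand), the reductase that returns retinaldehyde to retinol and so lowers the substrate of the ALDH1A enzymes, rose in both clones and more in CS19. Its counts were 102, 160 and 81 in WT, 321, 291 and 343 in CS16 and 694, 900 and 1146 in CS19. The 3 groups did not overlap, in counts or after normalisation, and WT-2 was the highest WT library. The mean normalised level was 6.11 ± 2.65 CPM in WT, 14.4 ± 1.14 in CS16 and 36.0 ± 3.96 in CS19 (SD, n = 3 each). By edgeR's quasi-likelihood test the log2 fold change against WT was 1.27 (SE 0.32, adjusted p = 0.0126) in CS16, under the fold-change threshold, and 2.598 (SE 0.33, adjusted p = 0.00043) in CS19. Between the clones it was -1.33 for CS16 minus CS19 (SE 0.10, adjusted p = 6.998e-07), and this difference kept its adjusted p below 0.05 without any 1 library. In both clones against WT it was 2.05 (SE 0.45, adjusted p = 0.00191), just over the threshold, and it dropped to 1.93 without WT-1, 1.86 without WT-3, 1.97 without CS19-1, 1.89 without CS19-2 and 1.90 without CS19-3, with the adjusted p below 0.05 in each.

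The 3 ALDH1A enzymes carry out the step that commits retinaldehyde to retinoic acid. *ALDH1A2* (RALDH2; ENSG00000128918, chromosome 15, 57953424 to 58497866, minus strand), the main such enzyme of the early embryo, changed most of the 3 on a scale with a measured WT level. Its counts were 14, 16 and 23 in WT, 5346, 4870 and 6460 in CS16 and 3769, 5230 and 6067 in CS19. Every clone library lay far above every WT library, and within each group the libraries differed by less than 2-fold. The mean level was 0.93 ± 0.25 CPM in WT, 250.5 ± 15.9 in CS16 and 198.9 ± 27.8 in CS19 (SD, n = 3). The log2 fold change against WT was 8.10 (SE 0.27, adjusted p = 4.178e-06) in CS16 and 7.78 (SE 0.29, adjusted p = 3.589e-06) in CS19 by edgeR's quasi-likelihood test. Both share the WT libraries, and over both clones together the value was 7.91 (SE 0.28, adjusted p = 1.12e-09).

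Between the clones *ALDH1A2* was higher in every CS16 library than in every CS19 library, with a log2 fold change of 0.33 (SE 0.09, adjusted p = 0.0135, edgeR's quasi-likelihood test). That call was lost without CS16-1 (adjusted p = 0.0623), CS16-3 (0.0524) or CS19-1 (0.0717). Of the exon bases of *ALDH1A2*, 6.93% are shared with genes on the opposite strand. The partners had few counts, 3 to 8 for *ALDH1A2-AS1* and at most 1 for *AQP9* in the clones.

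*ALDH1A1* (chromosome 9, 72900671 to 73080442, minus strand), the enzyme most often meant by ALDH activity in stem cell assays, had counts of 0, 0 and 1 in WT, 31, 28 and 31 in CS16 and 32, 38 and 33 in CS19. It was low in all libraries, and the clones did not overlap with WT. With 1 WT count over 3 libraries the ratio of the clones to WT was 77.8 with an exact 95% interval of 13.8 to 3089 for counting error. The test gave an adjusted p of 3.894e-06 for both clones against WT by edgeR's quasi-likelihood test. The 2 clones overlapped in this gene. Their ratio was 0.99 for CS16 to CS19 (exact 95% interval 0.741 to 1.33, counting error only, adjusted p = 0.956).

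*ALDH1A3* (RALDH3; chromosome 15, 100877714 to 100916626, plus strand), the form often tied to ALDH activity in breast cancer cells, was lower in the clones. Its normalised counts were 6.90, 6.67 and 7.75 CPM in WT, 1.32, 1.10 and 1.15 in CS16 and 2.23, 2.78 and 1.64 in CS19, from 23 to 151 read pairs a library. All clone libraries were below all WT libraries, and CS16 was below CS19 without overlap. The mean level was 7.11 ± 0.57 CPM in WT, 1.19 ± 0.12 in CS16 and 2.21 ± 0.57 in CS19 (SD, n = 3). By edgeR's quasi-likelihood test the log2 fold change was -2.54 (SE 0.24, adjusted p = 0.000101) in CS16 and -1.65 (SE 0.27, adjusted p = 0.00145) in CS19 against WT, the second under the fold-change threshold. For CS16 minus CS19 it was -0.88 (SE 0.26, adjusted p = 0.0226), which was lost without CS16-3 (0.0727), CS19-1 (0.0686) or CS19-2 (0.0859).

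Both clones together gave *ALDH1A3* a log2 fold change of -2.06 (SE 0.29, adjusted p = 7.483e-05, edgeR's quasi-likelihood test). It left the fold-change threshold without WT-3 (-1.97), CS16-1 (-1.9956), CS16-2 (-1.96) or CS16-3 (-1.97), with the adjusted p below 0.05 each time. Exons of other genes cover 33.3% of the exon bases of *ALDH1A3*. The partner *ALDH1A3-AS1* on the opposite strand had 34 to 36 counts in WT and 1 to 7 in the clones. Strand was not used in the counting, and reads of the 2 genes cannot be told apart where only one of them has an annotated exon.

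Per exon length, in FPKM, the levels of the 3 enzymes can be set beside each other. *ALDH1A3* gave 91.8% ± 1.97 of their sum in WT, *ALDH1A2* 7.80% ± 1.47 and *ALDH1A1* 0.373% ± 0.646 (SD, n = 3). In CS16 *ALDH1A2* gave 97.8% ± 0.19 and in CS19 96.4% ± 0.766, and *ALDH1A3* 0.708% ± 0.0408 and 1.64% ± 0.364. The leading enzyme was thus *ALDH1A3* in each WT library and *ALDH1A2* in each clone library. The sum rose from 1.45 ± 0.142 FPKM in WT to 31.5 ± 1.99 in CS16 and 25.4 ± 3.51 in CS19. Divided by full exon length, *ALDH1A1* lay above *ALDH1A3* in each of the 6 clone libraries. In CS16 the ranges were 0.434 to 0.535 and 0.206 to 0.248 FPKM, and in CS19 they overlapped. Of the exon bases of *ALDH1A3*, 33.3% are shared with other genes and went uncounted, beside 0% for *ALDH1A1*. The level of *ALDH1A3* may thus be understated, and its order with *ALDH1A1* in CS19 is not settled. With canonical transcript lengths the CS19 shares were 1.116% ± 0.238 for *ALDH1A1* and 1.065% ± 0.24 for *ALDH1A3*.

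**Figure D2:**
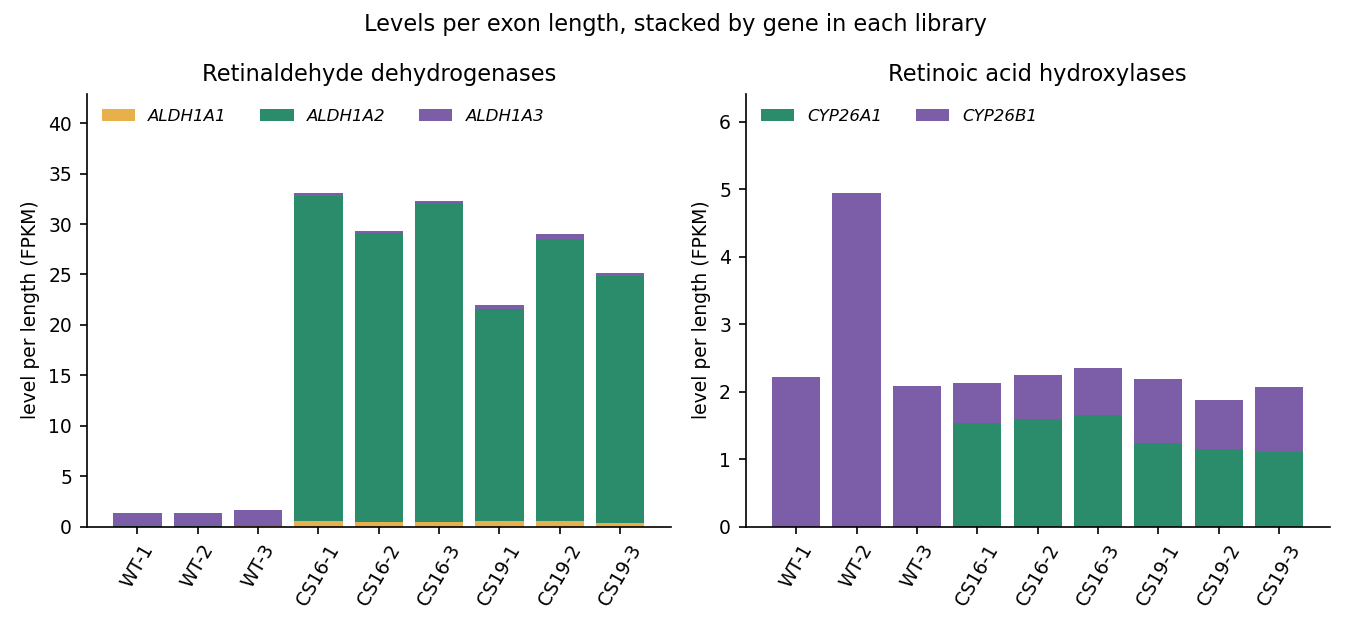
Levels per exon length (FPKM, vertical axes from 0) stacked by gene in each library (horizontal axes), with the 3 retinaldehyde dehydrogenases on the left and the 2 retinoic acid hydroxylases on the right. The left bars are almost all *ALDH1A3* in WT and almost all *ALDH1A2* in the clones, and the right bars are *CYP26B1* alone in WT and *CYP26A1* with *CYP26B1* in the clones.

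*CRABP2* (chromosome 1, 156699606 to 156705816, minus strand), the carrier that hands retinoic acid to its nuclear receptors, was lower in both clones and lowest in CS19. Its counts were 69, 101 and 120 in WT, 27, 35 and 30 in CS16 and 13, 14 and 21 in CS19. The 3 groups were ordered WT, CS16, CS19 without overlap, and WT-1 was the lowest of WT. The mean level was 5.11 ± 1.49 CPM in WT, 1.40 ± 0.25 in CS16 and 0.63 ± 0.05 in CS19 (SD, n = 3). By edgeR's quasi-likelihood test the log2 fold change against WT was -1.84 (SE 0.32, adjusted p = 0.00202) in CS16 and -2.96 (SE 0.33, adjusted p = 0.000207) in CS19. The CS16 value was under the fold-change threshold and passed it without WT-1 (-2.08). Over both clones it was -2.34 (SE 0.35, adjusted p = 0.000121), and CS16 exceeded CS19 by 1.12 (SE 0.29, adjusted p = 0.0104).

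The CYP26 enzymes end the signal by oxidising retinoic acid. *CYP26A1* (ENSG00000095596, chromosome 10, 93073475 to 93077885, plus strand), whose own transcription is switched on by retinoic acid, had 0 counts in all 3 WT libraries. It had 93, 99 and 123 counts in CS16 and 81, 79 and 100 in CS19. In CPM every CS16 library (4.56 to 4.89) exceeded every CS19 library (3.27 to 3.68). Against a floor of 3 counts per WT library it was at least 29.97-fold higher in CS16 (adjusted p = 9.102e-05), at least 21.9-fold higher in CS19 (adjusted p = 0.000112) and at least 25.95-fold higher over both (adjusted p = 5.364e-07) by edgeR's quasi-likelihood test. Between the clones the log2 fold change was 0.45 (SE 0.15, adjusted p = 0.0421), and without any 1 of the 6 clone libraries the adjusted p lay between 0.0551 and 0.133. Exons of a same-strand gene, itself at 0 counts, cover 25.3% of the exon bases of *CYP26A1*, and pairs on those bases went uncounted.

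The start of *CYP26A1* is shown because it was the only one among the 9 genes with a match to the element that retinoic acid receptors are known to bind, a direct repeat of a hexamer with 5 bases between (DR5). The search took AGGTCA and AGTTCA, as well as GGGTCA and GGTTCA, for either hexamer, on both strands, in RefSeq promoters (GRCh38.p14) of 250 bases before to 50 after each start, with 17 windows for the 9 genes. The receptor gene *RARB*, known for such an element, is set beside it. Capitals mark the hexamers, and each line reads 5′ to 3′ on the strand of the match.
CYP26A1: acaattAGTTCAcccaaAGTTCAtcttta
RARB: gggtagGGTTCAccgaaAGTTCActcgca
The *CYP26A1* stretch is chr10:93073797-93073825 on the minus strand, opposite to the gene, with the repeat 90 to 74 bases before one of its 2 annotated starts. The *RARB* stretch is chr3:25428204-25428232 on the plus strand, with the repeat 53 to 37 bases before one of 4 starts. The repeats were identical in 15 of 17 bases. The allowed hexamers share most of their bases, so part of this identity was set by the search. A DR5 was found in 31 of 35116 promoters (0.0883%), a spacing of 2 in 0.0399% and of 1 in 0.131%, and none of these in the windows of the other 8 genes. The 31 promoters belong to 29 genes, of which 12 were tested and 6 called in both clones against WT, 3 higher and 3 lower, where 26.9% of all tested genes were called, 12.6% higher and 14.3% lower. The median log2 fold change of the 12 was 0.01, beside -0.00 over all genes tested. *CYP26A1* and *RARB*, printed above, are among the 12 and among the 3 called higher. These counts are therefore no separate evidence for the 2 genes. A match describes letters only.

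*CYP26B1* (chromosome 2, 72129238 to 72147862, minus strand), the second enzyme of the family, was lower in the clones. Its counts were 218, 419 and 197 in WT, 58, 67 and 85 in CS16 and 100, 81 and 142 in CS19. No clone library reached the lowest WT library, and WT-2 was more than 2-fold above the other WT libraries in CPM (23.9 beside 10.8 and 10.1). By edgeR's quasi-likelihood test the log2 fold change was -2.22 (SE 0.39, adjusted p = 0.00208) in CS16 and -1.78 (SE 0.38, adjusted p = 0.00565) in CS19, the second under the threshold. Without WT-2 the CS16 value was -1.73 (adjusted p = 2.742e-07) and that of both clones went from -2.01 (SE 0.28, adjusted p = 6.968e-05) to -1.50 (adjusted p = 4.358e-05). The latter also left the threshold without CS16-1 (-1.95), CS16-2 (-1.97), CS16-3 (-1.99) or CS19-2 (-1.9956). CS16 and CS19 differed by -0.44 (SE 0.18), which did not pass the test (adjusted p = 0.0859) and passed without CS19-2 (0.0324).

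Per exon length, *CYP26B1* gave all of the level of the pair in WT, 3.08 ± 1.61 FPKM (SD, n = 3). In CS16 *CYP26A1* gave 71.1% ± 1.11 of a sum of 2.24 ± 0.113 FPKM, and in CS19 57.3% ± 3.98 of 2.04 ± 0.151. The share of *CYP26A1* was at least 53.5% in each clone library. Pairs on 25.3% of the exon bases of *CYP26A1* went uncounted, beside 0% for *CYP26B1*. The share of *CYP26A1* and the sums in the clones may thus be understated. The ranges of the sum overlapped: WT-1 and WT-3 lay at 2.22 and 2.09 FPKM, within the range of the clone libraries, and WT-2 at 4.94. A difference in the summed level was not tested. *CYP26C1*, the remaining member of that family, had 2 to 12 counts per library and could not be tested.

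**Figure D3:**
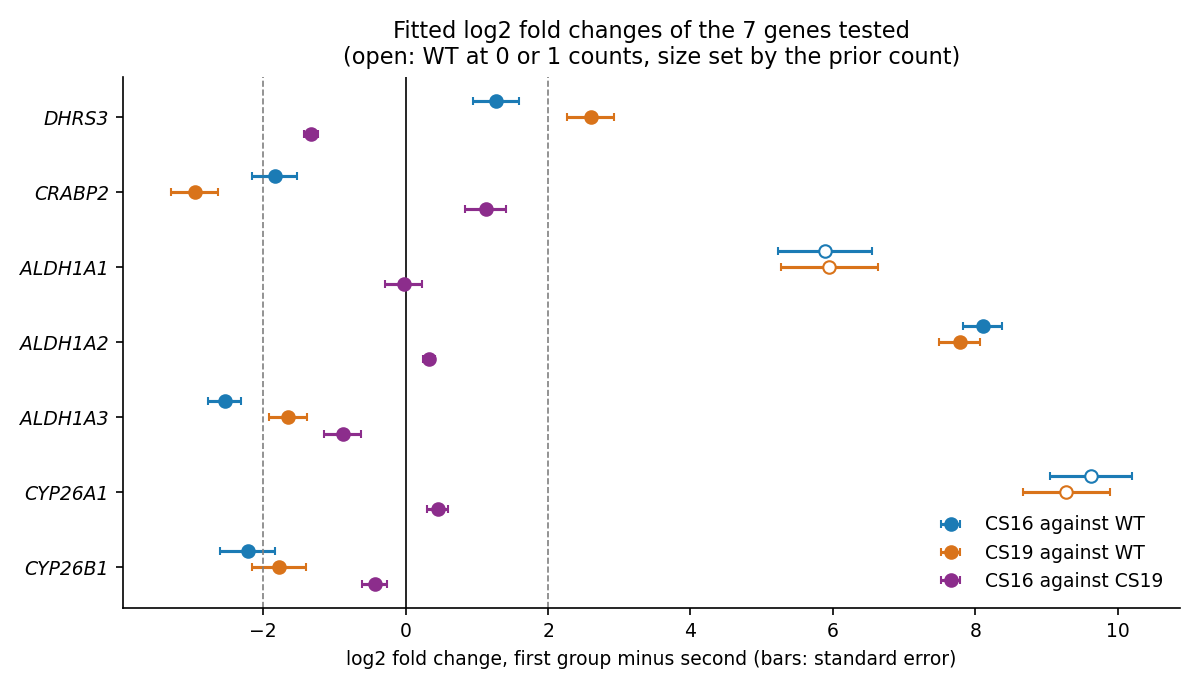
Fitted log2 fold changes (horizontal axis; first group minus second, bars are standard errors) of the 7 tested genes for CS16 against WT, CS19 against WT and CS16 against CS19, with dashed lines at the threshold of 2 in either direction. *ALDH1A2* lies at 8.10 and 7.78 against WT and 0.33 between the clones; open points are genes with 0 or 1 WT counts, whose fitted size depends on the prior count.

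Counted by comparison, 5 of the 7 tested genes were called in CS16 against WT, 3 higher and 2 lower, where 27.1% of all tested genes were called, 11.8% higher and 15.3% lower. In CS19 against WT 5 were called, 4 higher and 1 lower, where 26.4% were called, 12% higher and 14.4% lower. The same WT libraries served both. All 7 had an adjusted p below 0.05 in each, as did 55.6% and 52.9% of all genes tested. In CS16 against CS19 none of the 7 was called, where 1.13% of all tested genes were called, 0.633% higher in CS16 and 0.496% lower. There 5 of the 7 had an adjusted p below 0.05, *ALDH1A2*, *CYP26A1* and *CRABP2* higher in CS16 and *ALDH1A3* and *DHRS3* higher in CS19, where 27.4% of all tested genes did, 14.7% higher in CS16 and 12.7% lower.

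On the FPKM scale, which allows genes to be ordered, the WT order was *CRABP2* (4.72 ± 1.38), *CYP26B1* (3.08 ± 1.61), *DHRS3* (1.74 ± 0.755), *ALDH1A3* (1.33 ± 0.106) and *ALDH1A2* (0.114 ± 0.0302). The first 3 overlapped neighbour by neighbour, as did *DHRS3* and *ALDH1A3*. In CS16 the order was *ALDH1A2* (30.8 ± 1.95), *DHRS3* (4.10 ± 0.325), *CYP26A1* (1.59 ± 0.0564), *CRABP2* (1.29 ± 0.228), *CYP26B1* (0.649 ± 0.0566), *ALDH1A1* (0.48 ± 0.0511) and *ALDH1A3* (0.223 ± 0.0221). Of these neighbours *CYP26A1* and *CRABP2* overlapped. In CS19 *ALDH1A2* (24.5 ± 3.42), *DHRS3* (10.3 ± 1.13) and *CYP26A1* (1.17 ± 0.0695) again came first without overlap, followed by *CYP26B1* (0.875 ± 0.13), *CRABP2* (0.581 ± 0.0478), *ALDH1A1* (0.491 ± 0.102) and *ALDH1A3* (0.415 ± 0.107), the last 3 of which overlapped. Values are means ± SD over 3 libraries. Exon length includes bases shared with other genes, on which pairs went uncounted, 33.3% for *ALDH1A3* and 25.3% for *CYP26A1*. The levels of these genes may be understated, and so may their place in the order.

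The other genes that feed the pathway were called at a share close to that of all tested genes. Of 16 genes of retinoid uptake, storage and retinol binding 8 were tested, and in both clones against WT 2 were called, both higher, where 26.9% of all tested genes were called. *LRP2*, the megalin receptor that takes up retinol with its plasma carrier, had 4, 11 and 1 counts in WT and 987 to 2762 in the clones, with a log2 fold change of 7.89 (SE 0.57, adjusted p = 2.834e-07, edgeR's quasi-likelihood test) that was 9.02 without WT-2. Its WT and clone libraries did not overlap. The median over the 8 was 0.93. Of 20 genes of retinol and retinaldehyde interconversion 11 were tested, 2 were called higher and 1 lower, beside the same 26.9%, with a median of 0.66.

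*RDH10*, the main enzyme that oxidises retinol to retinaldehyde and the counterpart of *DHRS3*, was among those called higher. Its counts were 221, 135 and 185 in WT, 1644, 1923 and 2058 in CS16 and 1265, 1306 and 2066 in CS19. All clone libraries exceeded all WT libraries, by a log2 fold change of 2.95 (SE 0.22, adjusted p = 4.065e-07, edgeR's quasi-likelihood test). *RDH12*, known for its work in photoreceptors, was low throughout with 3 to 6 counts in WT and 14 to 32 in the clones, at 2.05 (SE 0.42, adjusted p = 0.0012). That value was under the threshold without WT-1 (1.84), WT-3 (1.89), CS16-1 (1.97) or CS16-3 (1.91). *SDR16C5*, another retinol dehydrogenase, had 102, 36 and 126 counts in WT and 0 in all clone libraries, at least 35.0-fold lower against a floor of 3 counts per clone library (adjusted p = 4.414e-05).

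Of 16 receptors, carriers and co-regulators 15 were tested, 3 were called higher and 2 lower, where 26.9% of all tested genes were called, with a median log2 fold change of -0.18. *RARB*, a receptor that is itself induced by retinoic acid, had 22, 3 and 16 counts in WT, 695, 627 and 835 in CS16 and 824, 1027 and 1191 in CS19. Clone libraries exceeded WT libraries throughout, by a log2 fold change of 5.68 (SE 0.41, adjusted p = 2.522e-07, edgeR's quasi-likelihood test). *RXRG*, at 0 counts in WT and 18 to 83 in the clones, was at least 12.7-fold higher (adjusted p = 0.000222). *PRAME*, a cancer-testis antigen described as a repressor of RAR signalling, was at 0 in WT and 1494 to 2269 counts in the clones, at least 472.1-fold higher (adjusted p = 1.529e-09). Both bounds are set against 3 counts per WT library.

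Both genes of that list called lower left the fold-change threshold without WT-2. One of them, *PPARD*, a receptor that has been reported to take retinoic acid, had 557, 2595 and 516 counts in WT and 146 to 240 in the clones. All clone libraries lay below all WT libraries, and WT-2 was far above WT-1 and WT-3. Its log2 fold change was -3.05 (SE 0.45, adjusted p = 0.000108, edgeR's quasi-likelihood test), and -1.73 without WT-2 (adjusted p = 5.226e-07). *RARA* did not pass the test (-0.18, adjusted p = 0.716), and here too WT-2 stood apart. WT-1 and WT-3 lay at 7.003 and 6.725 CPM, below every clone library (9.492 to 16.39). WT-2 lay at 29.26 CPM, above every clone library. The small fold change of *RARA* therefore does not show that its level was unchanged. *RARG*, *RXRA* and *RXRB* fell by 1.10, 1.42 and 1.49 on the log2 scale with adjusted p of 0.00662, 0.000164 and 1.924e-05, under the fold-change threshold, and were named after their values were seen. In each, all clone libraries lay below all WT libraries, and WT-2 was the highest. It lay at 29.7 CPM beside 12.9 and 13.7 in *RARG*, 155.1 beside 66.6 and 76.2 in *RXRA*, and 115.9 beside 73.3 and 77.4 in *RXRB*.

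Of 20 textbook response genes of retinoic acid 15 were tested, and 11 were called in both clones against WT, 5 higher and 6 lower, where 26.9% of all tested genes were called, 12.6% higher and 14.3% lower. Their median log2 fold change was -0.99. The list moved both ways: *MEIS1*, a homeobox gene, had 20, 13 and 24 counts in WT and 872 to 1899 in the clones (5.76, SE 0.26, adjusted p = 5.861e-09). *MEIS2*, its relative, had 253, 205 and 214 counts in WT and 1028 to 1869 in the clones (2.37, SE 0.17, adjusted p = 2.685e-07). On the lower side *TGM2*, a transglutaminase, had 16723, 29086 and 16944 counts in WT and 63 to 103 in the clones (-8.36, SE 0.32, adjusted p = 1.93e-09, edgeR's quasi-likelihood test). *GPRC5A*, a membrane receptor named for its induction by retinoic acid, had 263.5, 463.4 and 224.1 CPM in WT and 1.91 to 3.63 CPM in the clones (-6.85, SE 0.26, adjusted p = 2.053e-09). *PLAAT4*, also known as retinoic acid receptor responder, had 1850, 1008 and 2206 counts in WT and 0, 0, 0, 1, 2 and 0 in the clones (adjusted p = 2.078e-09). None of these genes overlapped between WT and clones. The 9p21 genes and the breast, luminal and kidney markers given above differed between the same libraries, and their part in these results was not tested.

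**Figure D4:**
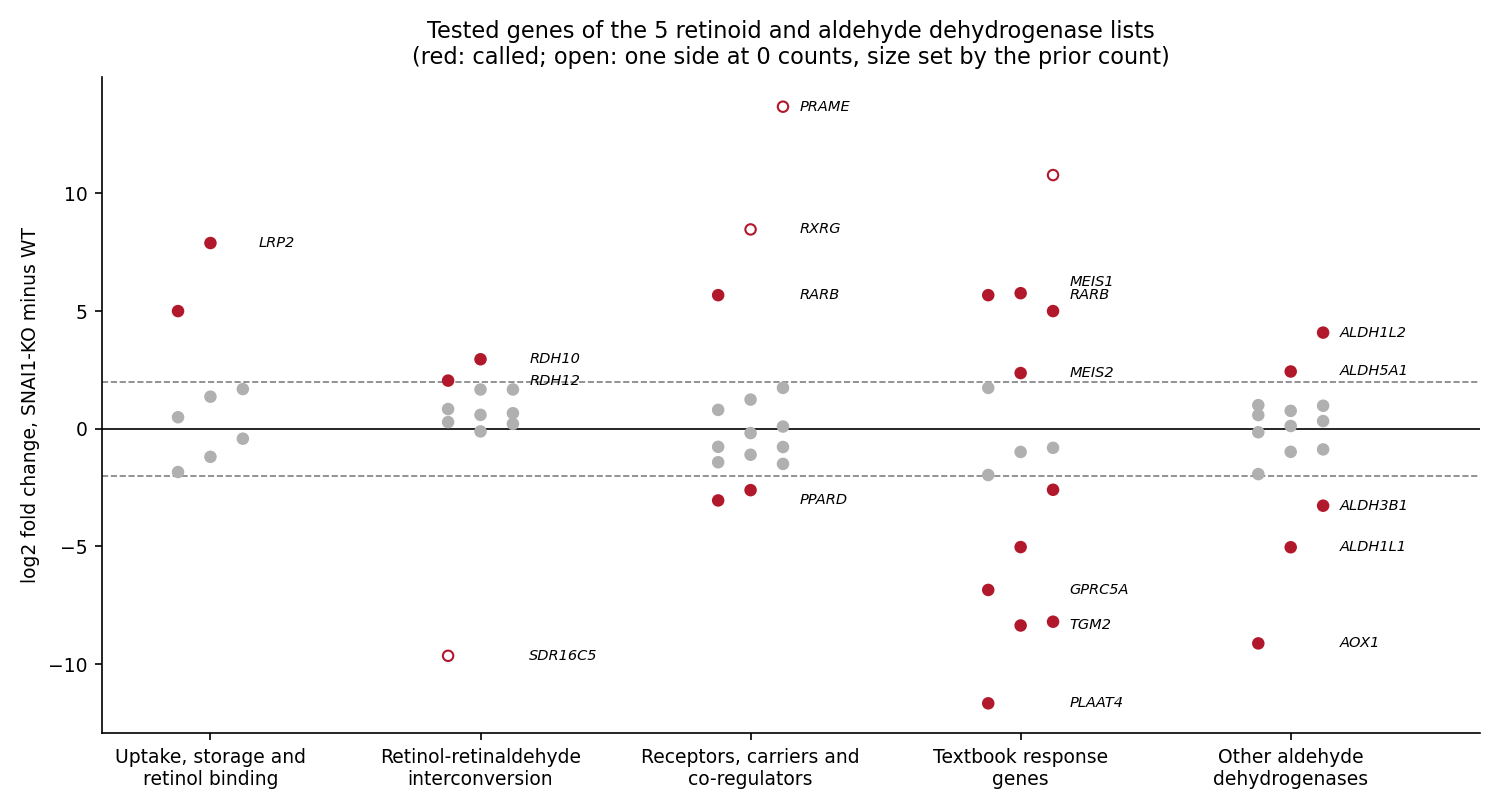
Fitted log2 fold changes (vertical axis, both clones labelled *SNAI1*-KO minus WT) of every tested gene in 4 retinoid lists and 1 list of other aldehyde dehydrogenases with *AOX1*; red points are called, open points have 0 counts on one side, and dashed lines mark 2 in either direction. The response genes hold 5 called points above and 6 below, and the names are of genes described in the text.

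The remaining aldehyde dehydrogenases and the aldehyde oxidase *AOX1* serve for comparison with the ALDH1A enzymes. Of these 17 genes 15 were tested, 2 were called higher and 3 lower (*AOX1* and 2 dehydrogenases), where 26.9% of all tested genes were called, with a median log2 fold change of 0.12. *ALDH1L2*, a mitochondrial enzyme of folate metabolism, had 47, 38 and 24 counts in WT and 654 to 900 in the clones (4.09, SE 0.26, adjusted p = 8.301e-08, edgeR's quasi-likelihood test). *ALDH5A1*, which breaks down a product of the transmitter GABA, rose by 2.43 (SE 0.17, adjusted p = 2.243e-07). *AOX1*, which can also oxidise retinaldehyde, had 1066, 639 and 1217 counts in WT and 1 to 3 in the clones (-9.12, SE 0.30, adjusted p = 8.804e-10). *ALDH3B1*, an enzyme of lipid aldehydes, fell by 3.27 (SE 0.25, adjusted p = 5.07e-07) and *ALDH1L1*, the cytosolic folate enzyme, by 5.04 (SE 0.55, adjusted p = 8.626e-06) from 53 to 62 counts to 0 to 6. No gene of these 5 lists was called between CS16 and CS19.

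The genes whose log2 CPM over the 9 libraries were most like those of *CYP26A1*, the member with the largest fitted change against WT, were *NEFL*, *TMEM47* and *LIN28B*, with Pearson's r of 0.9998, 0.9997 and 0.9996. All 3 were also at 0 in WT, and 616 of 19630 genes had r above 0.99. For *DHRS3*, the member that differed most between the clones, they were *MAGED1* (0.9911), *KCTD9P1* (0.9909) and *BRSK2* (0.9907), and 4 genes had r above 0.99. *MAGED1* lay at means of 111.2, 161.8 and 235.9 CPM in WT, CS16 and CS19 and *BRSK2* at 2.26, 10.1 and 30.8, the same order as *DHRS3*. The 9 libraries fall into 3 groups, and libraries of a group are not independent points in these r values.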

How the data were processed

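RNA of 9 untreated libraries was measured, 3 each labelled WT, CS16 and CS19. The authors depleted ribosomal RNA, made stranded libraries and, per the submitters' processing notes and file headers, used Trimmomatic 0.36, STAR 2.7.2b on GRCh38.p13 and featureCounts of Subread 2.0.0 on gencode 38, with both mates aligned, no chimeric pairs, a mapping quality of at least 30, no strand, and pairs on more than 1 gene left out. The deposited values were raw counts per gene, and 0 columns were left unmapped. Library totals were 19527195 to 28627777. A floor of 3 counts per library and 95% intervals cover counting error only, since reads had no molecular identifiers.

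Tests were run with edgeR 4.0.16 in R 4.3.3 (filterByExpr, TMM, glmQLFit, glmQLFTest, Benjamini-Hochberg adjustment over all genes tested) and tested on simulated data. CPM used TMM-scaled library sizes, and FPKM divided them by exon length. Calls needed an adjusted p below 0.05 and a log2 fold change of 2 or more, up or down. Alternatives were DESeq2 1.42.0, RLE and upper-quartile scaling, no filter, at least 10 counts in at least 3 libraries, other fold thresholds, a replicate block, a shared fit of 3 groups and leaving out each library. The members, the lists and the naming rule were chosen with earlier results of these data known. The rule named the 9 genes, *SNAI1*, the 3 smallest adjusted p per direction and list, marker genes at 0, and the 3 genes most like 2 members by correlation of log2 CPM with a prior count of 2. Symbols were found for 60507 of 60708 identifiers, and all 9 genes had RefSeq promoters. Same-numbered libraries did not deviate together. Reads, single exons and proteins were not analysed here, and a few genes that the rule picks are not reported here.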

Additional observations from a re-analysis of the deposited data

Results flagged for a closer look

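The clones' changes against WT differed for 5 of the 7 tested genes by the direct test of CS16 against CS19 (edgeR's quasi-likelihood test, adjusted p below 0.05), beside 27.4% of all genes tested. As log2 fold changes, CS16 minus CS19, these were 0.33 for *ALDH1A2*, -0.88 for *ALDH1A3*, 0.45 for *CYP26A1*, 1.12 for *CRABP2* and -1.33 for *DHRS3*. Each was separated in 3 of 3 libraries against 3 of 3. *DHRS3* and *CRABP2* thus lay farther from WT in CS19, and *ALDH1A3*, *ALDH1A2* and *CYP26A1* farther from WT in CS16. Dixon's test for outliers, run over the 6 clone libraries together, flagged none in the 8 genes with counts. Pooling the clones widens the range where they differ, so the test could hardly flag a library in such genes. *STRA6* had 9 counts in CS16-3 beside 2 to 4 in the other clone libraries and was not flagged.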

How the results depend on the processing

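All 7 tested genes kept their direction and an adjusted p below 0.05 against WT in every alternative run, for both clones together and for each clone. The number called was 5 to 7 for both clones, 4 to 7 for CS16 and 5 to 7 for CS19. Between the clones 0 were called at a log2 fold change of 2, against 5 with no fold-change threshold and 2 at a threshold of 1, and 0 without any 1 library. There, *DHRS3* alone kept its adjusted p below 0.05 throughout. *CRABP2* lost it in the shared fit of the 3 groups (adjusted p = 0.0907), *ALDH1A3* there (0.0996) and in DESeq2 (0.0526), *ALDH1A2* there (0.452) and with the replicate block (0.0596), and *CYP26A1* there (0.38), with the block (0.102), in DESeq2 (0.106), under upper-quartile scaling (0.0575) and with no filter (0.0744). The cause was not tested. *ALDH1A1* turned sign between the clones without CS16-3 (0.05), CS19-1 (0.02) or CS19-2 (0.12), in a range from -0.19 to 0.12. The numbers of the libraries do not pair them (correlations of deviations from -0.206 to 0.19 over 9 pairs, 1 above 0.1). With the replicate block, 6 genes were called for both clones together, since *CYP26B1* left the fold-change threshold (-1.94). It also did in DESeq2 (-1.98), under upper-quartile scaling (-1.97) and with no filter (-1.89), as did *ALDH1A3* with no filter (-1.95) and *DHRS3* in the shared fit (1.90). With the length of the canonical transcript, *ALDH1A3* gave 88.0% of the ALDH1A level in WT and *ALDH1A2* 98.7% in CS16 and 97.8% in CS19, and *CYP26A1* gave 76.4% and 63.8% of its pair. Without a filter, 4 genes of uptake and 5 of interconversion were called in place of 2 and 3, and 3 in place of 5 receptors and co-regulators were called without WT-2 and in DESeq2.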
